A study of Bos taurus with 14 samples.

Results

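The proteasome is the multi-subunit protease that breaks down proteins marked with ubiquitin chains. Its 20S core is a barrel of alpha and beta rings, in which a few beta subunits cut the chain, and its 19S cap recognises, unfolds and feeds in the substrate. Interferon induces replacement beta subunits, which turn the core into the immunoproteasome, and the PA28 activator, and both are best known for making peptides for MHC class I. In skeletal muscle the proteasome degrades proteins tagged by ligases such as FBXO32 (atrogin-1), and most of the roles given below were worked out in yeast, mouse and human.

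The transcripts described are all 49 rows of 18078 in the deposited gene table whose symbol begins with PSM, a letter from A to G and a digit, and which held any read. They were measured by RNA sequencing in longissimus dorsi, the long back muscle, of 14 female cattle (Bos taurus) at postnatal day 485, of which 7 came from restricted and 7 from control dams. Restricted dams were fed below the NRC requirement from gestational day 158 until calving, at 70% by the series design and at 50% by the treatment protocol, which disagree. Control dams received 100% of it over the same days. All calves were then raised alike, and were fed ad libitum after day 301. Every library is from a separate animal; whether any had the same sire or dam is not stated. Depth was 13631018 to 17325779 counts per animal, and the muscle fibre markers ACTA1, CKM, MYH1, MYH7, DES and MB summed to 138880 to 161450 CPM (counts scaled to library size) in restricted and 124290 to 157260 CPM in control animals. In bulk muscle, fewer cells of a type and less RNA per cell cannot be told apart.

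Of the 49 genes, 47 passed the filter on low counts. PSMA8, the alpha subunit of the testis, had 0 to 2 reads per animal, and PSMB11, the beta subunit of the thymus cortex, had 0 to 4, and neither was tested. The 47 include PSMC3IP, a meiotic recombination protein that the naming rule takes in although it is no proteasome subunit, with 6 to 19 reads per animal. The other 46 comprise the 7 alpha and 7 constitutive beta genes of the core, 3 immunoproteasome beta genes, 6 ATPase and 11 non-ATPase genes of the cap, 3 chaperones of the cap, 4 chaperones of the core, the 2 PA28 genes PSME1 and PSME2, and PSME3, PSME4 and PSMF1. All 49 together took 0.373% to 0.428% of the counts in restricted animals and 0.363% to 0.434% in control animals.

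Levels were first compared between genes as CPM per kb of the gene length in the deposited table. The median of the 14 core genes was 75.4 CPM per kb and that of the 17 cap genes 54.0 CPM per kb, against 4.76 CPM per kb over all genes tested. The finished core holds each of its subunits in equal number, while the transcript levels of the core genes ran from 27.8 to 121 CPM per kb. The highest core genes were PSMB6, the caspase-like catalytic subunit, at 121 ± 12.6 CPM per kb (SD, n = 14), and the alpha subunit PSMA7 at 113 ± 12.6. The lowest core gene was the beta subunit PSMB2 at 27.8 ± 2.15 CPM per kb, below the alpha subunit PSMA4 at 52.0 ± 6.12. PSMB6 and PSMA7 did not differ beyond their spread, and the lowest pair did. The order depends on the listed lengths. In CPM without length, PSMB5 was the highest core gene at 142, against 98.4 for PSMB6, and PSMB2 was still the lowest.

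In the cap, the ATPase genes PSMC5 and PSMC3 were highest, at 164 ± 13.2 and 120 ± 11.4 CPM per kb. The lowest were PSMD8, a lid subunit, at 30.8 ± 2.46 CPM per kb, and PSMD14, the deubiquitinase that removes the ubiquitin chain before degradation, at 31.9 ± 2.41, which did not differ beyond their spread. In CPM without length, PSMD2 was the highest cap gene at 284 and PSMD6 the lowest at 47.4. The activator genes stood lower than most core genes, with PSME2 at 36.7 ± 4.02, PSME4 (PA200, a nuclear activator) at 36.0 ± 3.67, PSME1 at 32.1 ± 4.94 and PSME3 (the nuclear PA28 gamma) at 14.8 ± 1.02 CPM per kb. PSMF1, an inhibitor of the core in vitro, was at 28.4 ± 4.61 CPM per kb. The chaperones, which help assembly and leave the finished particle, ran from 3.71 ± 0.711 CPM per kb for PSMD10 to 24.5 ± 4.31 for PSMG4, whose listed length of 372 bases is the shortest of the 49.

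**Figure D1:**
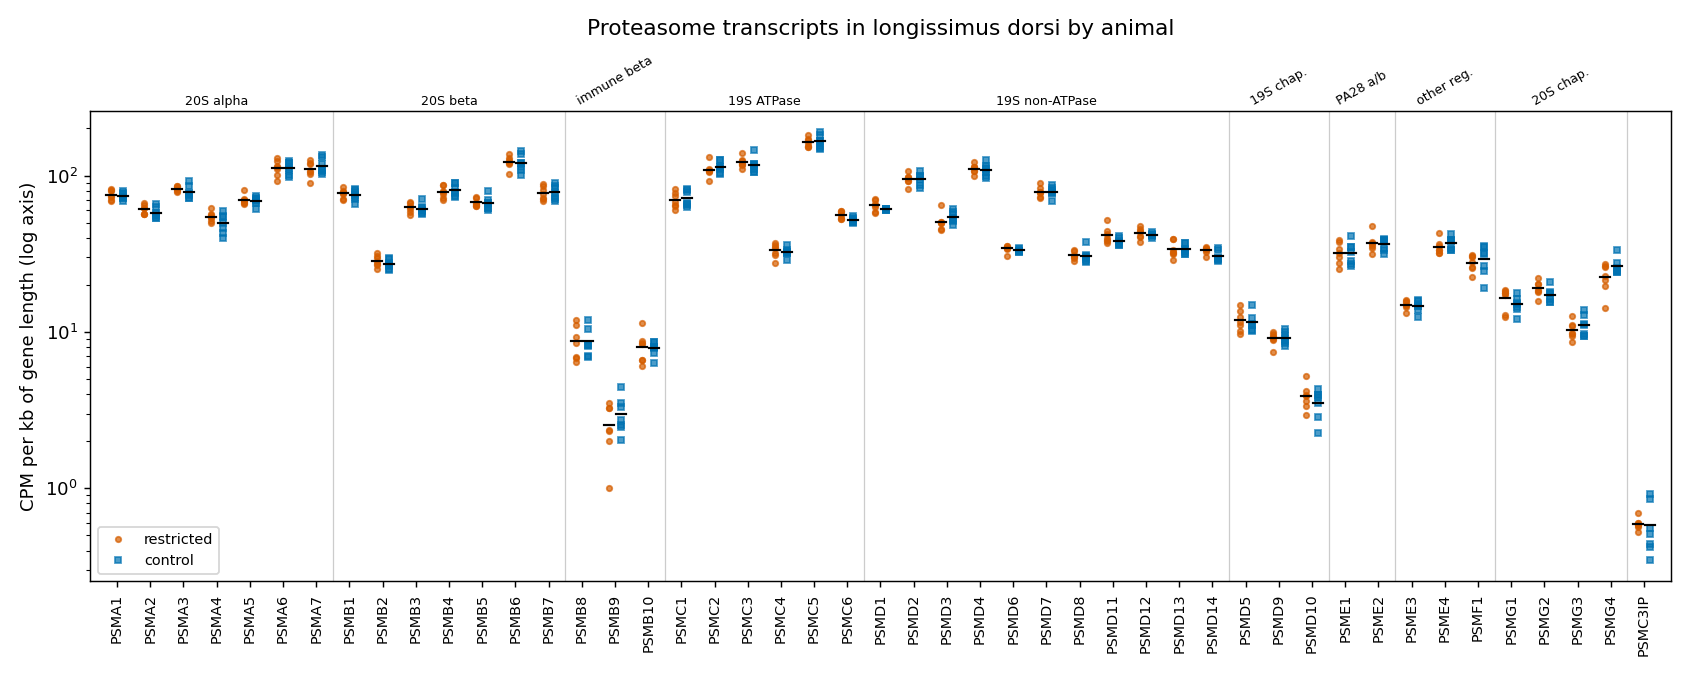
Level of each of the 47 tested genes in every animal, in CPM per kb of gene length on a log axis, with restricted animals (circles) left of control animals (squares) and bars at the group means. The immunoproteasome genes PSMB8, PSMB9 and PSMB10 lie between 2.77 and 8.70 CPM per kb on average, below all 14 constitutive core genes, and the groups overlap for every gene.

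The 3 immunoproteasome subunits were present at low level. PSMB8 averaged 8.70 ± 1.91 CPM per kb (SD, n = 14), PSMB10 7.94 ± 1.35 and PSMB9 2.77 ± 0.859, while the constitutive subunits they replace averaged 67.0 ± 5.30 for PSMB5, 78.0 ± 7.69 for PSMB7 and 121 ± 12.6 for PSMB6. PSMB5 carries the chymotrypsin-like and PSMB7 the trypsin-like activity of the core. As a share of the immune and the constitutive transcript together, per kb, PSMB8 made up 11.5% ± 2.26 of PSMB8 plus PSMB5, PSMB10 9.28% ± 1.52 of PSMB10 plus PSMB7, and PSMB9 2.22% ± 0.617 of PSMB9 plus PSMB6. These are shares of transcripts, not of assembled proteasomes, and PSMB9 rests on 11 to 56 reads per animal. They also depend on the listed lengths, 2127 bases for PSMB5 against 1052 for PSMB7 and 810 for PSMB6. In CPM without length, PSMB8 averaged 9.40 against 142 for PSMB5, and PSMB10 9.59 against 82.1 for PSMB7, so the order of those shares depends on length.

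Between the diets, no proteasome gene passed the test. Of the 47, 0 had an adjusted p under 0.05 by the quasi-likelihood F test of edgeR (Benjamini-Hochberg over all 12187 genes), where 0% of all genes passed, and 0 of the 47 had an unadjusted p under 0.05, against 4.25% of all genes. DESeq2 and limma voom also called 0 of the 47, with 2 and 0 of them at an unadjusted p under 0.05. In edgeR the adjusted p was 0.99997 for every one of the 47, so unadjusted p-values are given below only to rank them. The groups overlapped in CPM for all 47, and did not for 0.0574% of all genes tested.

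The estimates were also narrow. The 47 fold changes, restricted over control, ran from 0.846 for PSMB9 to 1.11 for PSMA4, and 32 were above and 15 below 1, with a median log2 fold change of 0.02 against -0.00079 over all genes, of which 49.7% were above 0. That split depends on the scaling: with library size alone, 12 were above and 35 below 1, while the median of all genes moved to -0.05, so the median of the 47 minus that of all genes stayed at 0.02. The 95% interval lay within 1.5-fold in both directions for 46 of the 47 genes, against 77.8% of all genes tested. It lay within 1.2-fold for 33 of the 47, against 27.9% of all genes, among them 13 of the 14 core and 15 of the 17 cap genes. The 47 genes had a median level of 68.1 CPM against 12.1 CPM over all genes, and intervals narrow with level. PSMB9 was the gene whose interval reached past 1.5-fold, from 0.594 to 1.2.

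**Figure D2:**
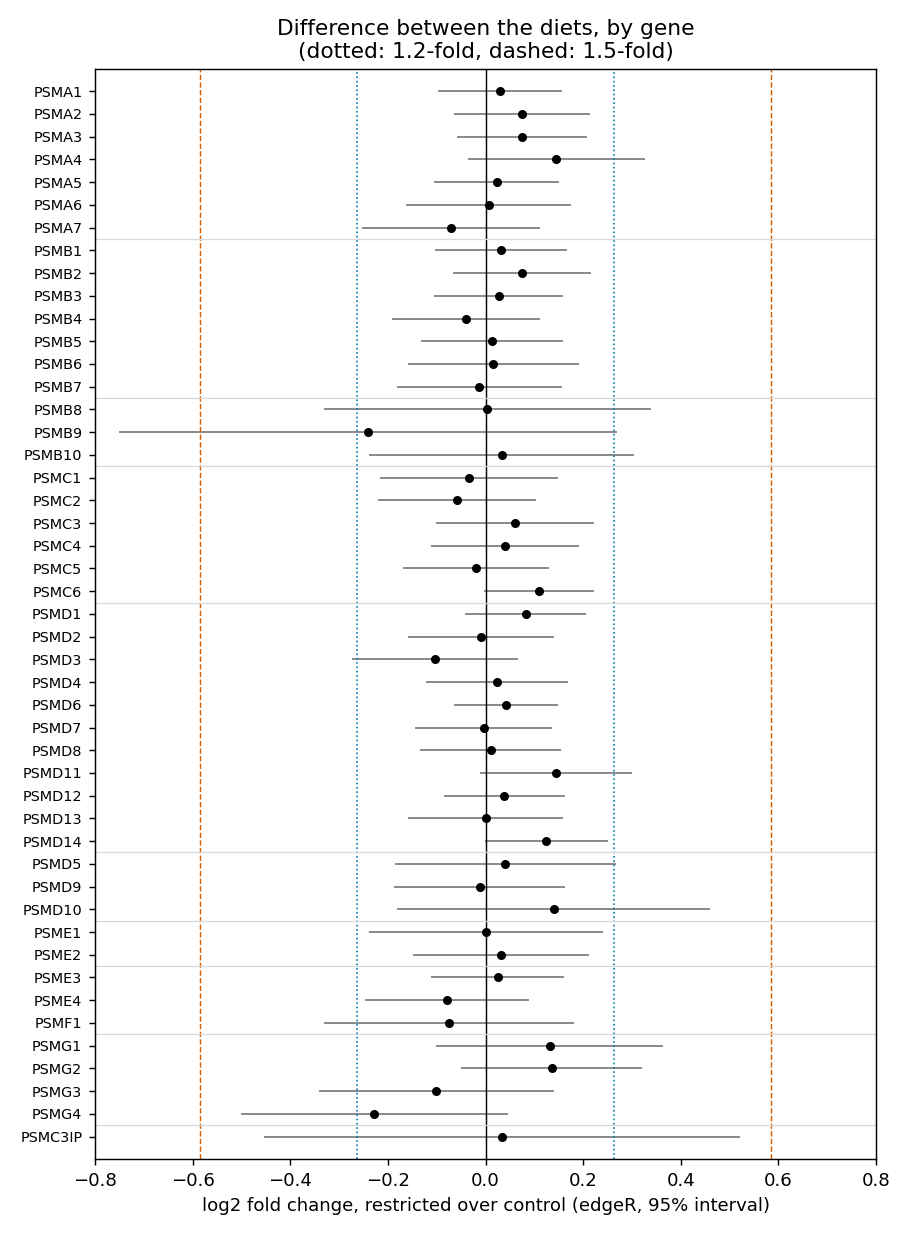
Log2 fold change, restricted over control, of each tested gene with its 95% interval from edgeR, ordered by role, with dotted lines at 1.2-fold and dashed lines at 1.5-fold. All intervals cross 0, and the interval of PSMB9 is the one that passes a 1.5-fold line.

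Among core genes, the alpha subunit PSMA4 had the smallest p. Its level was 56.0 to 69.9 CPM (median 60.9) in restricted and 44.8 to 66.4 CPM (median 55.8) in control animals, with a log2 fold change of 0.14 ± 0.086 (SE) and an unadjusted p of 0.111 in edgeR. Control 6, control 4, control 2 and control 1 lay below all restricted animals, and the other 3 control animals lay within the restricted range. The catalytic subunits differed by less than that. PSMB5 was at 135 to 155 CPM (median 140) in restricted and 128 to 170 CPM (median 142) in control animals, with a 95% interval of the fold change of 0.912 to 1.12. PSMB6 was at 83.2 to 111 CPM (median 98.2) in restricted and 81.8 to 116 CPM (median 97.6) in control animals (interval 0.895 to 1.14). PSMB7 was at 72.4 to 93.3 CPM (median 80.7) in restricted and 72.3 to 94.3 CPM (median 81.4) in control animals (interval 0.882 to 1.11). The groups overlapped for all 3, and control 3 was the highest animal for each of them.

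In the cap, 11 genes were above and 6 below 1. The smallest p of all 47 belonged to PSMD14, at 59.3 to 68.2 CPM (median 66.3) in restricted and 56.0 to 67.6 CPM (median 58.1) in control animals (fold 1.09, interval 0.999 to 1.19, unadjusted p = 0.0533, edgeR). Control 5 and control 7 lay within the restricted range, and the other 5 control animals lay below it. The ATPase gene PSMC6 followed, at 102 to 115 CPM (median 109) in restricted and 96.7 to 106 CPM (median 101) in control animals (interval 0.997 to 1.17, unadjusted p = 0.0578, edgeR). PSMD11, a lid subunit that joins lid to base, was at 81.2 to 115 CPM (median 88.3) in restricted and 79.8 to 90.1 CPM (median 83.5) in control animals, with restricted 4 highest (interval 0.991 to 1.23, unadjusted p = 0.0688, edgeR). On the lower side stood the lid gene PSMD3, at 101 to 145 CPM (median 112) in restricted and 108 to 136 CPM (median 120) in control animals, a log2 fold change of -0.10 ± 0.081 (SE). Restricted 4 was the highest animal of all 14 for it, while the other 6 restricted animals lay at or below 113 CPM.

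The assembly chaperones of the core work in pairs, PSMG1 with PSMG2 and PSMG3 with PSMG4, in building the alpha ring. PSMG2 was at 15.4 to 21.7 CPM (median 18.03) in restricted and 15.1 to 20.2 CPM (median 17.0) in control animals, with a log2 fold change of 0.14 ± 0.088 (SE). PSMG4 was at 5.32 to 10.04 CPM (median 8.44) in restricted and 9.04 to 12.4 CPM (median 9.29) in control animals, with a log2 fold change of -0.23 ± 0.13 (SE) and an unadjusted p of 0.0966 in edgeR. Restricted 4, restricted 7, restricted 6 and restricted 5 lay below all control animals, and the other 3 restricted animals lay within the control range. Its partner PSMG3 was at 6.15 to 8.97 CPM (median 6.94) in restricted and 6.63 to 9.74 CPM (median 7.85) in control animals. None of the 4 core chaperones and 1 of the 3 cap chaperones had an interval within 1.2-fold.

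The interferon-inducible genes did not separate the diets. PSMB8 was at 6.98 to 12.8 CPM (median 9.21) in restricted and 7.505 to 12.8 CPM (median 8.86) in control animals, a fold of 1.003 with an interval of 0.795 to 1.27. PSMB10 was at 7.35 to 13.7 CPM (median 10.05) in restricted and 7.64 to 10.4 CPM (median 9.70) in control animals, with an interval of 0.848 to 1.24. PSMB9 was at 0.748 to 2.62 CPM (median 1.76) in restricted and 1.51 to 3.33 CPM (median 2.03) in control animals, with a log2 fold change of -0.24 ± 0.24 (SE). Restricted 6 was the lowest animal for PSMB9 and control 6 the highest, and the other 12 animals overlapped. PSME1 and PSME2, which form the PA28 ring that opens the core, had fold changes of 1.001 and 1.02, with intervals of 0.848 to 1.18 and 0.903 to 1.16.

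The log2 ratio of each immune subunit to the constitutive one it replaces was compared between the diets by exact permutation (two-sided, 3432 assignments of animals to diets, smallest possible p 0.000583). PSMB8 over PSMB5 averaged -3.94 ± 0.34 in restricted and -3.92 ± 0.32 in control animals (SD, n = 7 each), a difference of -0.03 (exact p = 0.875, adjusted over the 3 ratios 0.888). PSMB9 over PSMB6 averaged -5.70 ± 0.47 in restricted and -5.40 ± 0.38 in control animals, a difference of -0.29 (exact p = 0.223, adjusted 0.668), with 3 of 7 restricted animals above the control median. PSMB10 over PSMB7 averaged -3.08 ± 0.33 in restricted and -3.10 ± 0.20 in control animals, a difference of 0.02 (exact p = 0.888, adjusted 0.888). None of the 3 differences exceeded the spread between animals.

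The remaining regulators did not pass either. PSME3 was at 47.4 to 56.7 CPM (median 53.0) in restricted and 44.6 to 57.4 CPM (median 52.3) in control animals. PSME4 was at 228 to 309 CPM (median 241) in restricted and 238 to 304 CPM (median 275) in control animals, and PSMF1 at 29.5 to 40.5 CPM (median 36.5) in restricted and 25.2 to 46.1 CPM (median 41.1) in control animals. The groups overlapped for each of the 3. Outside the PSM names, 33 assembly factors, ubiquitin receptors, shuttles and ubiquitin genes could be tested, 17 above and 16 below 1, with 0 past the threshold and 0 at an unadjusted p under 0.05 in edgeR. NFE2L1, the transcription factor that raises proteasome genes when the proteasome is impaired, averaged 1301 ± 207 CPM in restricted and 1207 ± 87.7 CPM in control animals (SD, n = 7 each). Of the list of 29 tested interferon-stimulated genes, 27 were above and 2 below 1 and 0 passed, with a median log2 fold change of 0.48. Restricted 7 was the highest of the 14 animals for 25 of the 29, the restricted median was above the control median for 13 and below it for 16, and without restricted 4, restricted 7 and control 7 the counts were 8 above and 21 below 1, with a median of -0.16. Of the 15 genes of MHC class I loading, 10 were above and 5 below 1, with 0 past the threshold and 1 at an unadjusted p under 0.05.

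Spread between animals differed among the roles. The SD of log2 CPM over the 14 animals had a median of 0.11 in the core and 0.11 in the cap, 0.13 over the 47 and 0.23 over all genes tested. The steadiest were the lid genes PSMD6 and PSMD12 at 0.060 and 0.087 and the ATPase PSMC6 at 0.086. The most variable were PSMB9 at 0.48, PSMC3IP at 0.32 and PSMB8 at 0.30, all of them among the genes of lower level. Counting error is larger at low level, and its part in these SDs was not tested. PSMB10, at a level like that of PSMB8, had 0.23, and PSMG4, PSMG3 and PSMD10, at lower levels than PSMB8, had 0.27, 0.20 and 0.28. PSMD6 was at 42.8 to 50.0 CPM (median 48.6) in restricted and 45.7 to 48.3 CPM (median 46.3) in control animals, so the highest animal exceeded the lowest 1.17-fold. For PSMB9 that ratio was 4.46 and for PSMB8 1.84.

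**Figure D3:**
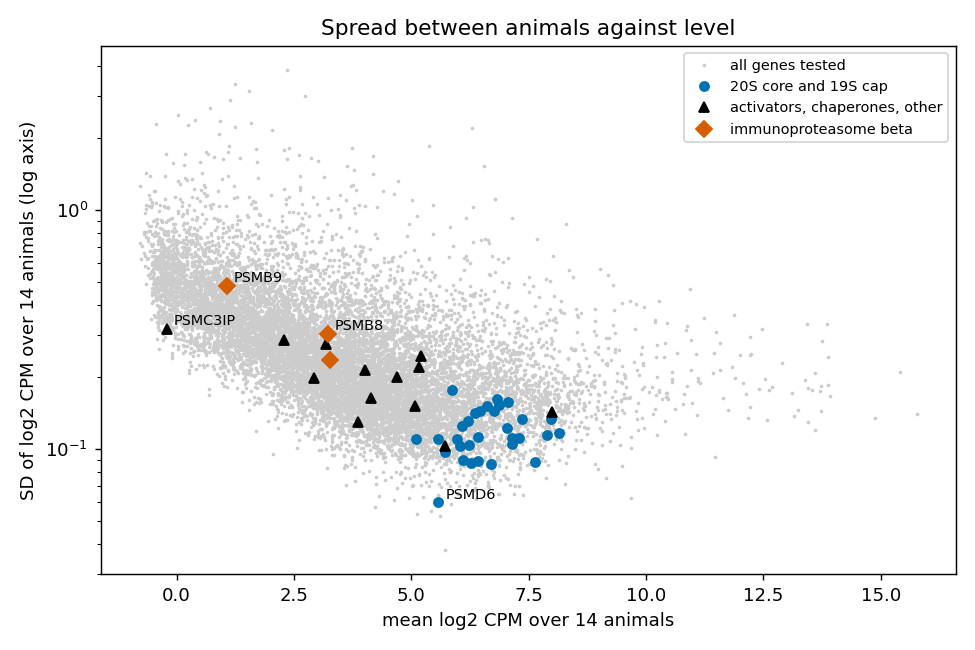
SD of log2 CPM over the 14 animals (log axis) against mean log2 CPM for all genes tested (grey), core and cap genes (circles), activators, chaperones and other members (triangles) and the immunoproteasome beta genes (diamonds). Core and cap genes form a compact group at high level with SDs from 0.060 to 0.18, while PSMB9, PSMC3IP and PSMB8 have the largest SDs of the 47.

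Core and cap genes shared their highest animals. Summed CPM of the 14 core genes was 1136 to 1339 (median 1195) in restricted and 1104 to 1342 (median 1162) in control animals, and summed CPM of the 17 cap genes was 2089 to 2570 (median 2241) in restricted and 2111 to 2462 (median 2199) in control animals. Control 3 and restricted 4 were the 2 highest animals for both sums. Restricted 4 was the highest of the 14 animals for 16 of the 47 genes, or 34%, against 10.1% of all genes tested, and control 3 was the highest for 10, or 21.3%, against 8.16%. Of the 31 core and cap genes, restricted 4 was highest for 14 and control 3 for 9. Restricted 6 was the lowest animal for 8 of the 47, or 17%, against 7.75% of all genes. NFE2L1 was at 1703 CPM in restricted 4, the highest of the 14, and at 1126 CPM in control 3, near the lowest of 1068 CPM in restricted 1, and its part in the proteasome levels was not tested.

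The immune genes were mixed in restricted 4, which was 2nd highest of the 14 for PSMB9 (2.62 CPM) and 7th for PSME2 (34.2 CPM). It was the lowest of the 14 animals for PSMB8 (6.98 CPM), PSME1 (28.4 CPM), PSMG3 (6.15 CPM) and PSMG4 (5.32 CPM) while being the highest for PSMD11 (115 CPM) and PSMD3 (145 CPM). Summed CPM of the 3 immunoproteasome genes was 16.6 to 28.9 (median 19.8) in restricted and 17.9 to 25.7 (median 20.6) in control animals, with restricted 1 highest and restricted 2 lowest.

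**Figure D4:**
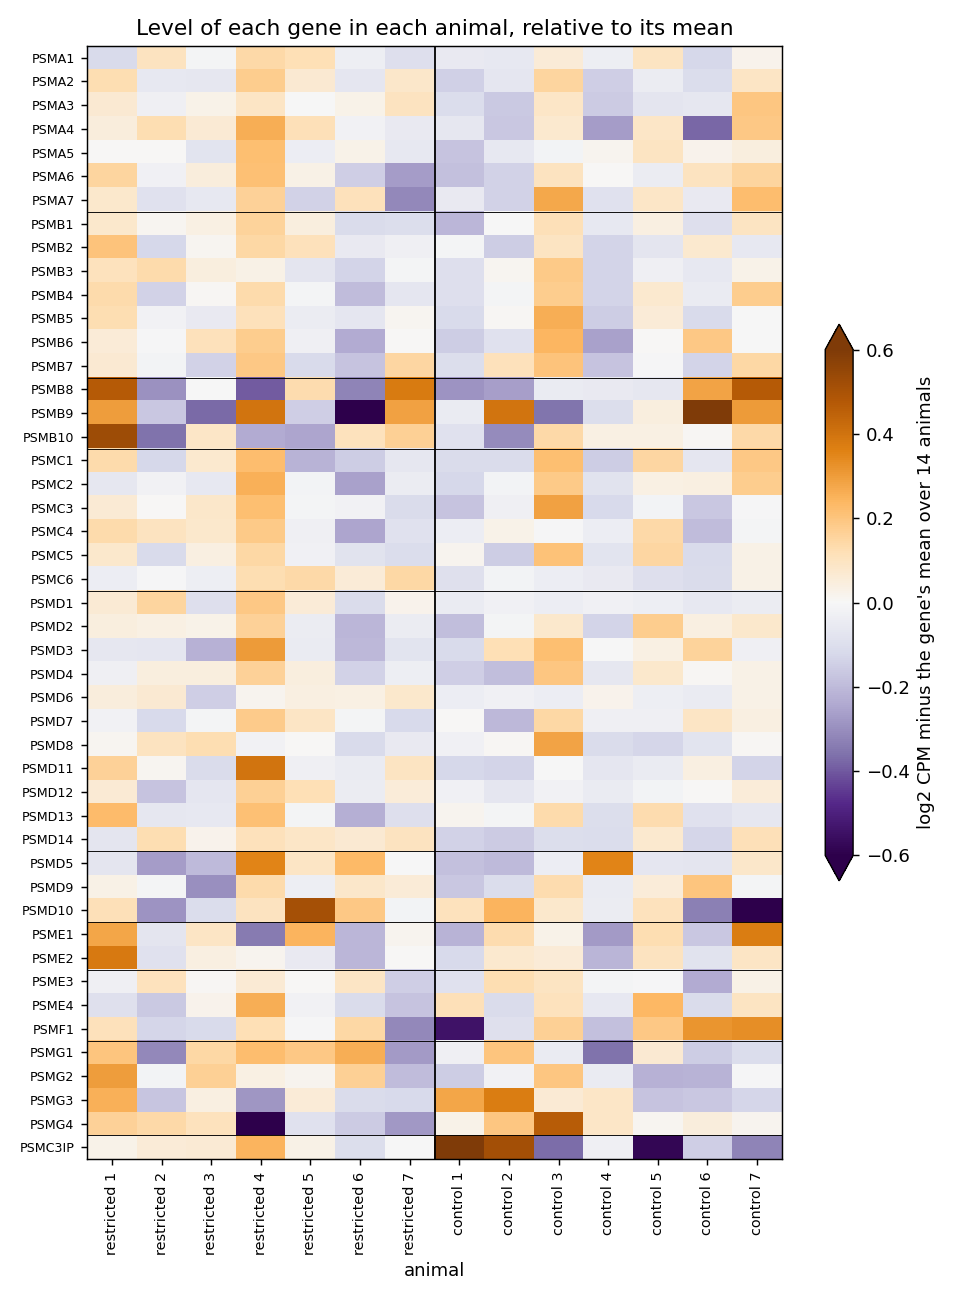
Log2 CPM of each tested gene in each animal minus the gene's mean over the 14 animals, with restricted animals left and control animals right and rows ordered by role. The columns of restricted 4 and control 3 are high over most core and cap rows, while PSMB8, PSME1, PSMG3 and PSMG4 are lowest in restricted 4.

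How partners of a complex moved together over the 14 animals was measured for 6 pairs by Pearson's r and Spearman's rho of log2 CPM, with permutation p-values from 100000 resamples adjusted over the 6. The catalytic genes PSMB5 and PSMB7 had r = 0.80 (permutation p = 0.00019, adjusted 0.00114) and rho = 0.85 (adjusted 0.00144), and r = 0.74 without the 2 animals farthest from the median of PSMB5. The PA28 genes PSME1 and PSME2 had r = 0.69 (permutation p = 0.00475, adjusted 0.0095) and rho = 0.75 (adjusted 0.00711), and r = 0.82 without the 2 farthest. For these 2 pairs the relation held without those animals. Pairs of genes that are not partners were not measured, and core and cap genes shared their highest animals. Whether any of these relations is particular to partners was therefore not tested.

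The other 4 pairs were weaker without the animals farthest from the median, or did not pass. The ATPase genes PSMC1 and PSMC2 had r = 0.72 (permutation p = 0.0024, adjusted 0.0072; rho = 0.63, adjusted 0.0364), but r = 0.54 (permutation p = 0.0705) without restricted 4 and control 3. PSMB5 and PSMB6 had r = 0.63 (permutation p = 0.015, adjusted 0.018; rho = 0.59, adjusted 0.0402), but r = 0.33 (permutation p = 0.301) without control 3 and control 4. The immune genes PSMB8 and PSMB10 had r = 0.66 (permutation p = 0.00989, adjusted 0.0148, and rho = 0.58, adjusted 0.0402), but r = 0.48 (permutation p = 0.118) without control 7 and restricted 1. Leaving out the farthest animals narrows the range and leaves 12, so it cannot show that these 3 relations rest on them. With 1 animal left out at a time, PSMC1 and PSMC2 kept r from 0.65 to 0.79 and passed each time. PSMB8 and PSMB9, which lie beside TAP1 in the MHC region (RefSeq, ARS-UCD2.0), had r = 0.43 (permutation p = 0.129, adjusted 0.129) and rho = 0.24 (adjusted 0.401), which did not pass.

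ISG15, a ubiquitin-like protein strongly induced by type I interferon, set 3 animals apart. It was at 35.4 CPM in restricted 7, 12.4 CPM in restricted 4 and 16.9 CPM in control 7, against 0.389 to 1.51 CPM in the other 5 restricted and 0.725 to 2.92 CPM in the other 6 control animals. The immune proteasome genes did not follow that order. PSMB8 was 12.8 CPM in control 7, the highest of the 14, and 12.0 CPM in restricted 7, the third highest, but 6.98 CPM in restricted 4, the lowest. PSMB9 was at 2.43, 2.62 and 2.45 CPM in restricted 7, restricted 4 and control 7, above the median of 1.83 CPM but within the range of the other 11 animals. PSMB10 ranked 2nd, 11th and 4th of 14 in restricted 7, restricted 4 and control 7, and PSME1 ranked 8th, 14th and 1st. PSME2 ranked 8th, 7th and 3rd, above the median of the other 11 in all 3, as PSMB9 was. Of the 47 genes, 15, or 31.9%, were above the median of the other 11 in all 3 animals, against 15.3% of all genes tested, and 3, or 6.38%, in none of them, against 15.7%. The only interferon-inducible genes among the 15 were PSMB9 and PSME2, and core and cap genes such as PSMB7, PSMC6 and PSMD12 were among them. Restricted 4 alone was the highest of the 14 for 16 of the 47 genes, and its part in that share was not tested.

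The largest gap on ISG15 was 0.335 of the range, just past the cut-off of 0.333. By that rule those 3 animals form a cluster of their own. No correlation over all 14 is therefore given, and the relation to ISG15 was fitted over the other 11. There 0 of the 47 slopes passed in edgeR with adjustment over the 12186 other genes, of which 0% passed, and 2 had an unadjusted p under 0.05, against 5.25% of all genes. The 2 were PSMB9, with a slope of 0.45 ± 0.19 (SE) log2 units per log2 unit of ISG15 (adjusted p = 0.936), and PSME3 with -0.11 ± 0.052 (adjusted p = 0.936). In all, 17 slopes were above and 30 below 0, with a median of -0.03, against 50.2% of all genes above 0. PSMB8 had a slope of 0.17 ± 0.11 (adjusted p = 0.954). Over these 11 animals PSMB8 and ISG15 had r = 0.43 (permutation p = 0.195) and rho = 0.39 (permutation p = 0.238), and PSMB9 and ISG15 had r = 0.61 (permutation p = 0.051) and rho = 0.59 (permutation p = 0.0606), with r = 0.42 without restricted 3 and control 6. For PSMB10, PSME1 and PSME2, r lay between -0.22 and -0.086. Adjusted over the 10 relations computed for these 5 genes with ISG15 and with PTPRC, the smallest p for ISG15 was 0.17.

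PSMB8 was also higher in animals with more of a leukocyte marker. PTPRC (CD45, on all leukocytes) was chosen after its level and that of PSMB8 had been seen. The p-values for PTPRC below do not account for that choice, and PTPRC is given as a description. It was at 2.07 to 7.02 CPM in restricted and 1.47 to 6.73 CPM in control animals, with restricted 7 highest and control 1 lowest. Over the 14 animals PSMB8 and PTPRC had r = 0.80 (permutation p = 0.00064, adjusted over the 10 relations 0.0064) and rho = 0.79 (permutation p = 0.00119, adjusted 0.0119), and r = 0.79 without control 1 and restricted 7. In the fit over all genes the slope of PSMB8 was 0.39 ± 0.084 (SE) log2 units per log2 unit of PTPRC, and it did not pass (edgeR, adjusted p = 0.0882), except with library size scaling alone (adjusted p = 0.0432). PSME1 had a slope of 0.19 ± 0.079 (adjusted p = 0.515), PSMB9 0.29 ± 0.18 (adjusted p = 0.701) and PSMB10 0.14 ± 0.098 (adjusted p = 0.738).

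In that fit 0 of the 47 genes passed, against 0% of all genes, and 2, PSMB8 and PSME1, had an unadjusted p under 0.05, against 8.46% of all genes. TAP1, the peptide transporter gene beside PSMB8, had a slope of 0.40 ± 0.080 (adjusted p = 0.0882), and the leukocyte genes LCP1 and CORO1A had 0.74 ± 0.12 and 0.73 ± 0.13 (adjusted p = 0.0567 each). Other genes of MHC class I loading were mixed. TAP2 had 0.31 ± 0.11, B2M 0.073 ± 0.067 and TAPBPL -0.20 ± 0.063 (edgeR, adjusted p = 0.451, 0.820 and 0.373). The 5 general leukocyte markers (PTPRC, CORO1A, LCP1, CD53 and ITGB2) were all tested, and their summed level was 9.88 to 30.7 CPM in restricted and 7.996 to 25.5 CPM in control animals. The 8 macrophage markers summed to 14.6 to 35.4 CPM in restricted and 13.3 to 27.6 CPM in control animals, and the 8 T and NK cell markers, of which 4 could be tested, to 2.35 to 10.1 CPM in restricted and 1.96 to 6.91 CPM in control animals. The 4 B cell markers summed to 0.204 to 1.51 CPM in restricted and 0.314 to 1.13 CPM in control animals, too low to test, and no marker of these lists was at 0 in every animal. The part of leukocytes in the PSMB8 level was not tested.

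**Figure D5:**
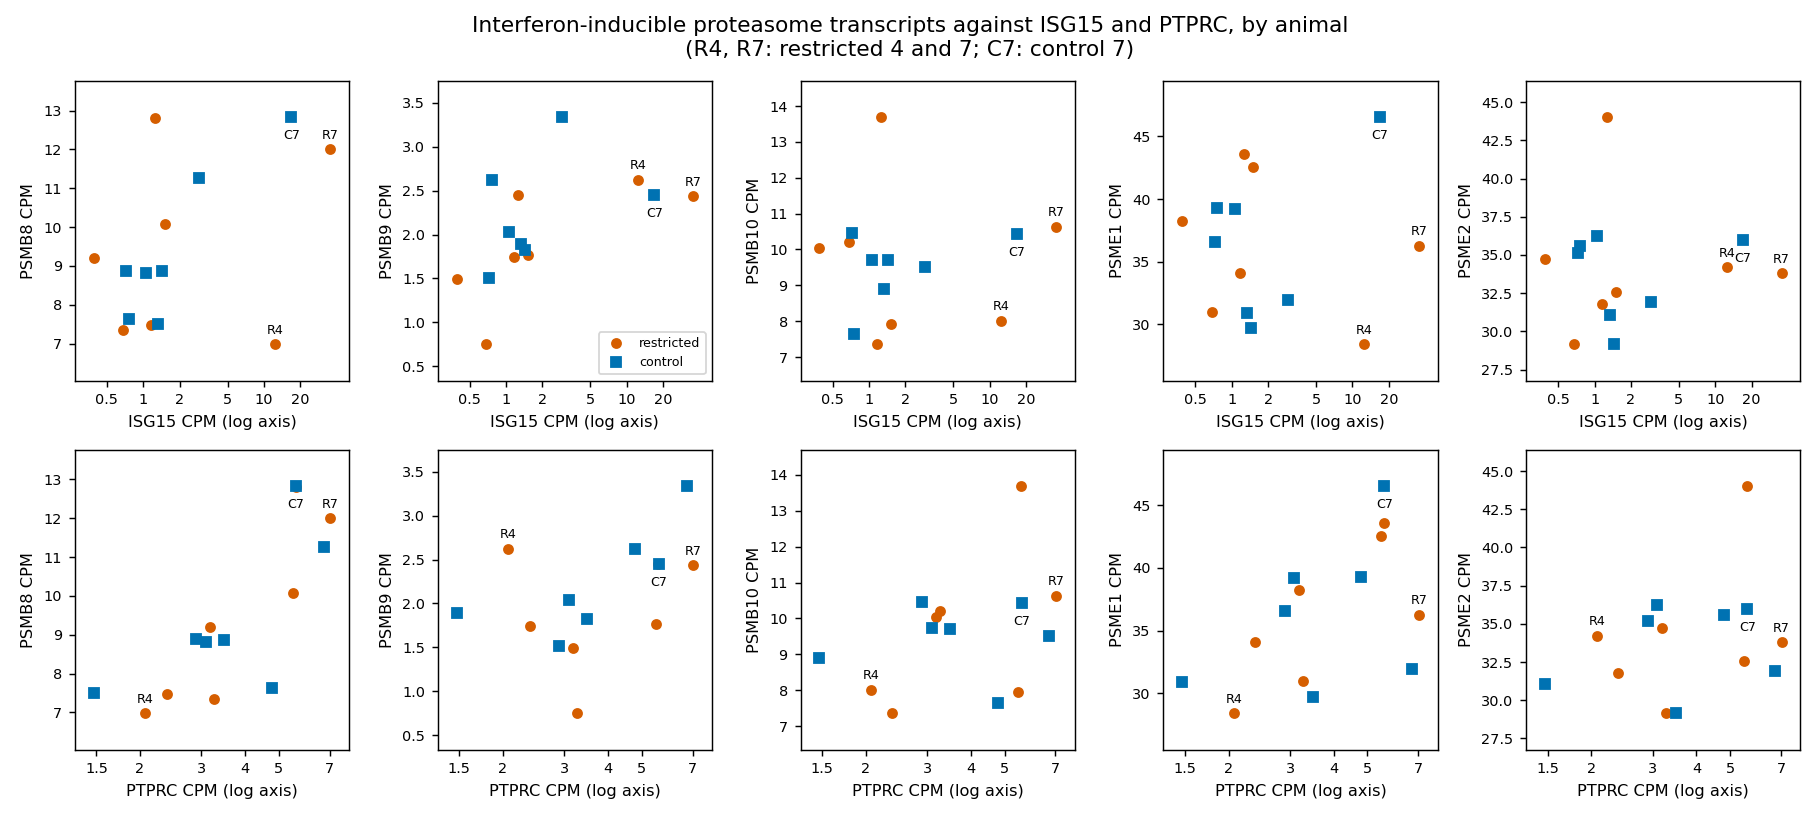
CPM of PSMB8, PSMB9, PSMB10, PSME1 and PSME2 in each animal against ISG15 (upper row) and PTPRC (lower row), both on log axes, with restricted animals as circles and control animals as squares. R4, R7 and C7 are restricted 4, restricted 7 and control 7, the animals apart on ISG15. R4 is the lowest of the 14 for PSMB8, and PSMB8 lies higher where PTPRC, chosen after the values were seen, is higher (r = 0.80).

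FBXO32, the muscle ligase whose targets go to the proteasome, was at 77.9 to 265 CPM in restricted and 163 to 244 CPM in control animals, and restricted 6, at 77.9 CPM, stood apart from the others. Over the other 13 animals 0 of the 47 slopes passed in edgeR, against 0% of all genes, and 1 had an unadjusted p under 0.05, against 4.95%. It was the chaperone gene PSMG1, with a slope of 0.44 ± 0.18 (SE) log2 units per log2 unit of FBXO32 (adjusted p = 0.972). Of the 47 slopes 29 were above and 18 below 0, with a median of 0.06, against 48.8% of all genes above 0 and a median of -0.0070. Restricted 6, the animal left out, was also the lowest of the 14 for the cap sum (2089 CPM) and for PSMB9 (0.748 CPM). It was not the lowest for the core sum (1136 CPM, against 1104 CPM in control 4), and it was the highest for PSMG1 (19.1 CPM).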

How the data were processed

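The deposited table holds unnormalized read counts for each gene, with a gene length, per the file headers. Per the submitters' processing notes, FastQC, HISAT2, featureCounts and edgeR were used with the build ARS-UCD1.2; versions, annotation, strand setting and handling of multi-mapped reads: not given in the sources used here. Reads of genes that overlap on opposite strands may therefore be mixed. Groups follow the treatment label, and replicate numbers follow sample order and pair nothing.

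Tests were run with edgeR 4.0.16 under R 4.3.3 (filterByExpr by group with minimum count 10 and minimum total 15, TMM scaling, quasi-likelihood F test, threshold 0.05), fitted on all 12187 genes kept of 18078. Each SE is log2FC / sqrt(F), and intervals are 95%. CPM are scaled by TMM, and log2 CPM use a prior count of 2. A measure on which the largest gap between neighbouring animals exceeded 0.333 of its range was fitted only over the larger cluster. DESeq2 1.42.0, limma 3.58.1, other scalings, no filter, title letters of unstated meaning as covariates and left-out animals were alternatives. Permutation tests used numpy 2.4.6 and scipy 1.17.1. The fits were also run on simulated data, in which the changes put in were all larger than any diet difference estimated for a proteasome gene. Detection of differences as small as those was not examined.

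Depth was 13631018 to 17325779 counts per animal, and the common biological coefficient of variation was 0.19. The members and gene lists were chosen with earlier results of these data known. Genes are named by rule: the immune, catalytic and activator genes, the 5 smallest p in each direction, the 2 highest and lowest per kb in core and cap, and the 3 largest and smallest SDs. PSMG1, PSMC1, PSMC2, PSMD2, PSMD10, TAP1, TAP2, B2M, TAPBPL, LCP1 and CORO1A were named after their values were seen or as members of a list or pair. Levels per kb use the deposited length, because no coding length was at hand, and no promoter motif was searched. DDI2, BST2, SAMD9 and TTN of the lists were not analysed here, and KIAA0368, an older symbol, was analysed as ECPAS. The reference table, of ARS-UCD2.0, served only for neighbours.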

Additional observations from a re-analysis of the deposited data

Results flagged for a closer look

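Within the groups of 7, the highest or lowest animal was set against the others by the gap to its nearest neighbour over the group's range, for 74 groups of values. A gap share above 0.568 was met 9 times, and chance gives about 1 in 20 groups if values are normally distributed. That was not tested for these CPM values. The 74 groups are also not independent, because the sums and ratios reuse the same genes, and some genes were named for a large SD. The flags are therefore a description.

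Control 3 stood apart upwards in 3 members. The ATPase gene PSMC3 was at 307 CPM there, against 222 to 249 CPM in the other 6 control animals, the lid gene PSMD8 at 57.7 against 43.4 to 47.7 CPM, and the chaperone gene PSMG4 at 12.4 against 9.04 to 10.3 CPM. Restricted 4 stood apart upwards in PSMD3, at 145 against 101 to 113 CPM in the other 6 restricted animals, and in PSME4, at 309 against 228 to 261 CPM. PSME2 was at 44.0 CPM in restricted 1, against 29.2 to 34.7 CPM in the other restricted animals. PSMD6, the member with the smallest SD, was at 42.8 CPM in restricted 3, against 47.9 to 50.0 CPM in the other restricted animals.

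ISG15 stood apart in restricted 7 at 35.4 CPM, against 0.389 to 12.4 CPM in the other restricted animals, and in control 7 at 16.9 CPM, against 0.725 to 2.92 CPM in the other control animals.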

How the results depend on the processing

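No proteasome gene passed between diets, with ISG15 or with FBXO32 under any of the 23, 18 and 19 alternatives run, where at most 3, 5 and 2 had an unadjusted p under 0.05; over all genes, 0 passed between diets in edgeR and limma voom and 1 in DESeq2. With PTPRC, an alternative added after the data were seen, 1 gene (PSMB8) passed with library size scaling alone, and its adjusted p ran from 0.0432 to 0.285. Of 621 fold changes of the 27 named genes under the alternatives, 615 lay within 1 SE of the value given, and 14 of the 27 genes changed sign at least once; for slopes on ISG15 this was 464 of 486 and 8 genes, and on FBXO32 507 of 513 and 16 genes. All 405 levels per kb stayed within 1 SD.

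Without control 7, restricted 4 and restricted 7 together, PSMB8 and PSMB10 had r = 0.60, PSMB5 and PSMB6 0.59, and PSMC1 and PSMC2 0.57, each no longer past the threshold (adjusted permutation p = 0.0797, 0.0797 and 0.0798), and the PSMB8 over PSMB5 difference was 0.072; the cause was not tested. Leaving out 1 animal at a time, r ran from 0.54 to 0.74 for PSMB8 and PSMB10 (lost without restricted 1, adjusted permutation p = 0.0706), from 0.31 to 0.57 for PSMB8 and PSMB9 (passed without restricted 4, 0.0362) and from 0.49 to 0.83 for PSMB5 and PSMB6 (lost without control 3, 0.108, and without control 4, 0.0649). The difference ran from -0.090 to 0.055 for PSMB8 over PSMB5, and from -0.053 to 0.095 for PSMB10 over PSMB7, so neither has a stable sign. For PSMB9 over PSMB6 it ran from -0.42 to -0.15 and for the log2 fold change of PSMB9 from -0.33 to -0.11, with the smallest difference in both without restricted 6. No paired analysis was possible because replicate numbers follow sample order. Depth limits PSMB9, PSMC3IP and PSMD10, which had fewer than 50 reads in some animals, and PSMA8 and PSMB11 were too low to test. ISG15 was low as well in the 11 animals over which its slopes were fitted.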
